A study of Emberiza melanocephala with 15 samples.

Results

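The 200 assembled genes with the most transcripts were described in the hypothalamus transcriptome of the blackheaded bunting (Emberiza melanocephala). Transcripts were counted per assembled gene from the identifiers alone, ties at the end of the ranking were broken alphabetically, and no measured value entered the choice. The 200 genes were 0.0630% of the 317533 assembled genes and held 7399 of the 552023 transcripts (1.34%), with 32 to 52 transcripts per gene and a median of 36. Of the 34 genes tied at 32 transcripts, 16 were inside the ranking and 18 outside. TRINITY_DN87261_c0_g1 was the last gene inside and TRINITY_DN87396_c0_g1 the first outside, both with 32. These genes were set against the 7503 other genes with at least 10 transcripts where a contrast was needed.

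The study took wild-caught adult male buntings in 2 life-history states, a photosensitive state kept on short days and a photorefractory state kept on long days, and left the light on past its usual end on the sampling day. Hypothalami were collected at hours 10, 14, 18 and 22 after light onset, from 2 birds per state and hour, except that the photorefractory group at hour 22 had 1 bird, which gave 15 libraries of total RNA, 1 per bird. Hour 10 was the reference of each state. In the photorefractory birds hours 10 and 14 fell within their usual light period, and in the photosensitive birds all 4 hours fell after the usual end of light. No separate day or litter was given for the birds of a group, so p-values refer to these birds only. The fits held hour and state as terms and not their interaction. The spread behind the p-values therefore also holds differences between the states in their change with hour. The label hypothalamus could not be checked against marker genes, because the tables used here carry assembly identifiers and no gene names.

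In the vertebrate brain many genes yield several mature transcripts through alternative promoters, alternative splicing and alternative polyadenylation, and the choice among them can change with cell type and activity. A de novo assembler such as Trinity groups reads into clusters, and each gene of a cluster is given as a set of paths through 1 graph of overlapping reads. A gene with many transcripts in such an assembly can be a gene with many isoforms, but allelic differences, repeats, paralogous copies and unspliced RNA also add paths, and an identifier does not tell them apart.

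Library totals ran from 3176062 to 9403923 estimated counts, and the 3 hour 22 libraries were the deepest, with 8068941 to 9403923. The 2 photorefractory hour 18 libraries were the shallowest and had the shortest fragments, 208 and 230 nt against 240.6 to 261.6 nt in the other libraries. Between 4 and 61 of the 200 genes had no count in a library, with 4 to 11 at hour 22 and 10 to 61 at the earlier hours.

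Most of the 200 genes were sets of short fragments with few reads. The median length of their transcripts was 306 nt, against 401 nt for all other transcripts and 467 nt for the other genes with at least 10 transcripts. The longest transcript was under 1000 nt in 150 genes and 1000 nt or more in 50. The 150 short genes had a median of 5.67 counts per library and held 9.44% of the counts of the 200, whereas the 50 long genes had a median of 105 counts and held 90.6%. Per length the contrast was small, with a median summed TPM of 6.22 in the short and 7.81 in the long genes. TPM is the count divided by effective length and scaled to the same sum in each library. Fragments of 208 to 262 nt leave short transcripts a small effective length, so few counts can give them a high TPM. The highest value, 157 TPM, was that of TRINITY_DN86308_c0_g1, of up to 492 nt, on a mean of 104 counts. The part of effective length in these TPM contrasts was not tested. The median of all 200 genes was 6.60 TPM, against 4.41 TPM for the other genes with at least 10 transcripts. It was 1.05 TPM for genes with 2 to 9 and 0.190 TPM for genes with 1 transcript. By counts scaled to the library total (CPM), with all lengths pooled, the 200 genes lay below the other genes with at least 10 transcripts. The medians were 1.15 CPM and 2.87 CPM, against 0.724 CPM for genes with 2 to 9 and 0.0410 CPM for genes with 1 transcript. Within each length class the 200 genes lay above the other genes with at least 10 transcripts in median counts per library. In the long genes the medians were 105 and 92.1 counts. Short genes made up 75% of the 200 and 44.7% of the other genes with at least 10 transcripts. In the latter the long genes held 94.2% of the counts. The part of this mix of lengths in the pooled medians was not tested.

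**Figure D1:**
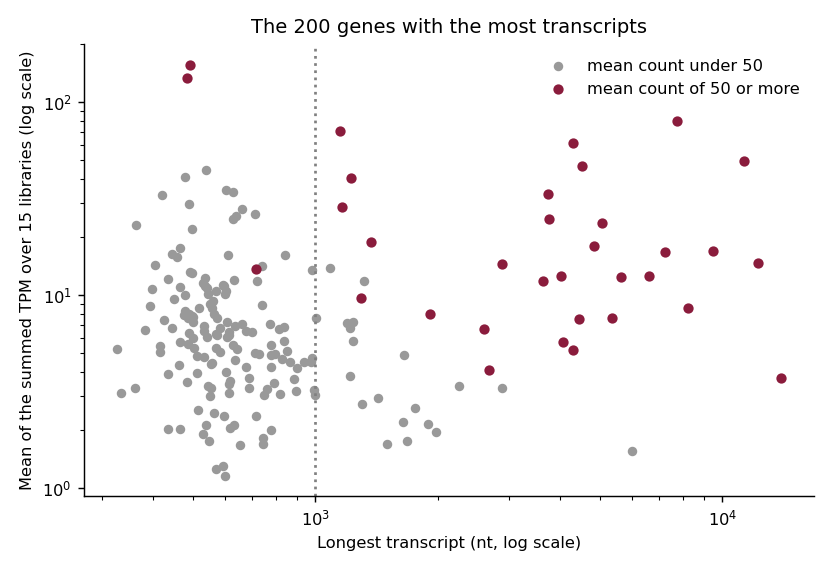
Each point is 1 of the 200 genes, placed by its longest transcript (nt, log scale) and by the mean over 15 libraries of its summed TPM (log scale), in dark red where its mean count was at least 50. The 33 genes with a mean count of at least 50 lie mostly right of the dotted line at 1000 nt, where 30 of them fall, while the TPM of the short and the long genes cover much the same range.

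Many of the listed transcripts were given an estimated count of 0 throughout. Of the 7399 transcripts, 2561 (34.6%) had a count of 0 in all 15 libraries, against 7.07% of all other transcripts. Another 2162 (29.2%) were seen in 1 library only, against 16.9% of the others, and 51 (0.689%) were seen in all 15, against 5.98%. The limit for testing, 5 or more counts in 2 or more libraries, was reached by 643 of them (8.69%), against 23.0% of the others. All 200 genes came from different read clusters of the assembly, and 63 were the only gene of their cluster. Their isoform numbers ran without gaps.

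The gene with the most transcripts, TRINITY_DN83387_c0_g1, illustrates the sparse kind. It had 52 transcripts of at most 498 nt and a mean of 9.08 counts per library. Next came TRINITY_DN92213_c0_g1, with 51 transcripts, a longest transcript of 12197 nt and a mean of 830 counts. TRINITY_DN90800_c0_g1 (48 transcripts, longest 3750 nt) had a mean of 658 counts. TRINITY_DN91427_c0_g1 (47 transcripts, longest 1911 nt) had 57.4 counts and TRINITY_DN98108_c0_g1 (48 transcripts, longest 985 nt) had 48.6 counts. The other 5 of the first 10 were TRINITY_DN82670_c0_g1, TRINITY_DN86461_c0_g1, TRINITY_DN87829_c0_g1, TRINITY_DN85660_c1_g1 and TRINITY_DN80724_c1_g1, with 47 to 50 transcripts, no transcript over 978 nt and means of 4.95 to 16.6 counts. Among these first 10 genes the rank by number of transcripts therefore did not follow the reads behind a gene.

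The reads were concentrated in a few genes. The 200 genes together held 0.271% of all counts, and the 10 with the largest sums held 57.9% of that. TRINITY_DN85906_c0_g1, with 34 transcripts up to 11284 nt, had the largest sum, a mean of 2176 counts per library. TRINITY_DN86096_c2_g1 (32 transcripts, mean 996 counts), TRINITY_DN98075_c1_g1 (38 transcripts, mean 963 counts), TRINITY_DN90382_c0_g2 (42 transcripts, mean 865 counts) and TRINITY_DN92213_c0_g1 followed. The share of a library's counts held by the 200 genes was 0.327% and 0.338% in the photosensitive birds and 0.313% in the photorefractory bird at hour 22, and 0.212% to 0.307% in the 12 libraries of hours 10 to 18, so the hour 22 libraries lay above all others. They were also the deepest libraries, and the part of depth in that difference was not tested. No such share was taken for other sets of genes, and genes with large sums weigh most in it. TRINITY_DN93742_c3_g1 had means of 197 CPM at hour 22 and 52.6 CPM at hours 10 to 18, and TRINITY_DN89282_c0_g1 229 and 90.4 CPM. TRINITY_DN86096_c2_g1 (141 and 176 CPM) and TRINITY_DN98075_c1_g1 (120 and 176 CPM) went the other way. In tissue RNA, fewer cells of a type and less RNA per cell cannot be told apart.

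Shares of transcripts were compared in the 33 genes with a mean of at least 50 counts per library. The share of a transcript is its estimated count divided by the summed count of its gene in that library. In the summed counts of all libraries the leading transcript held a median of 32.6% (8.94% to 89.2%), against 48.8% in the 2756 other genes with at least 10 transcripts and 82.7% in the 9364 genes with 2 to 9. The effective number of transcripts, the inverse of the summed squared shares, had a median of 5.70 among the 33 genes and 3.03 among the other genes with at least 10. It cannot exceed the number of transcripts, by which the genes were chosen and which had medians of 36 and 13. The part of that number in the contrasts of shares and leaders was not tested. The leading transcript passed 50% of the count in 9 of the 33 (27.3%, against 47.9%). The leading transcript was the longest one in 2 of the 33 genes (6.06%), against 14.7% of the other genes with at least 10 and 46.7% of genes with 2 to 9.

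The most concentrated genes were led by 1 transcript in most libraries. TRINITY_DN81635_c1_g1_i11 held 89.2% of its gene, although it had 0.00174% in photosensitive hour 14 bird 1. TRINITY_DN89754_c0_g1_i30 held 88.6% and TRINITY_DN98075_c1_g1_i31 held 73.7%. The last of these, of 1195 nt in a gene whose longest transcript was 7721 nt, held 61.1% to 89.4% in each of the 15 libraries and led in all of them. The lowest shares of a leading transcript were in TRINITY_DN94275_c0_g1, TRINITY_DN97366_c0_g1 and TRINITY_DN100201_c3_g1, with 8.94%, 11.5% and 15.8%. TRINITY_DN94275_c0_g1 had 10 different leaders over the 15 libraries, the most of the 33.

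**Figure D2:**
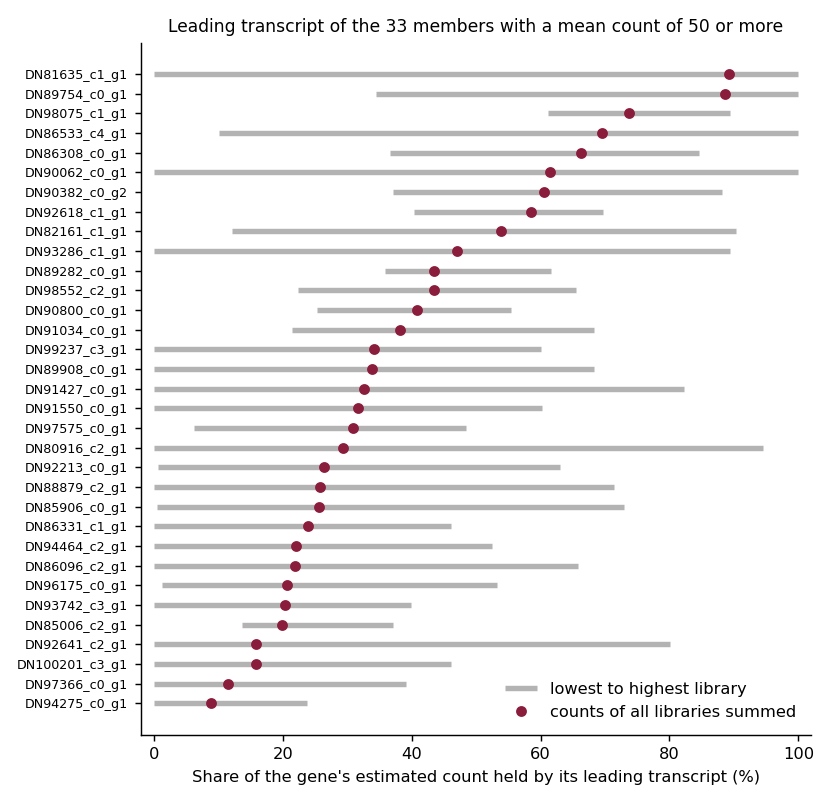
Share (%) of the estimated count of each gene held by its leading transcript, for the 33 genes with a mean count of at least 50, with a point for the summed counts and a bar from the lowest to the highest library with at least 20 counts of the gene. The points run from 8.94% to 89.2%, and the bars of many genes reach from near 0 to above 50%.

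The leading transcript was seldom the same in every library. It was the same in all libraries with at least 20 counts in 5 of the 33 genes (15.2%), against 22.5% of the other genes with at least 10 transcripts and 55.8% of genes with 2 to 9, and the median gene had 4 leaders. In each gene the birds of a group had the same leader in 44.9% of pairs, as a mean over genes. Birds of the same state at different hours had it in 45.7% and birds of different states at the same hour in 43.5%. The mean of the 7 bird pairs was 44.8% ± 12.5% (SD, n = 7 pairs). That SD is of single pairs and does not measure the uncertainty of the 3 means, which share the same libraries. In the other genes with at least 10 transcripts the 3 values were 63.5%, 60.3% and 61.8%. By these means birds kept alike disagreed on the leader of the 33 genes about as often as birds of different hours or states. The medians over genes lay apart, with 42.9% between birds of a group, 30.8% between hours and 30% between states. With TPM shares the means were 43.4%, 38.5% and 39.8%. They were 49.0%, 45.4% and 45.2% without the photorefractory birds of hour 18, and 44.0%, 45.8% and 41.4% without hour 22.

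The distance between the shares of 2 libraries was taken as the sum of absolute share differences over 2, 0 for equal shares and 1 where no transcript is shared. Over the 33 genes the median was 0.480 between the 2 birds of a group (7 pairs), 0.531 between hours within a state (42 pairs) and 0.467 between states at the same hour (14 pairs). These distances were larger than in the other genes with at least 10 transcripts, where the medians were 0.338, 0.378 and 0.362. The distance between the birds of a group ran from 0.301 in the photorefractory birds of hour 14 to 0.603 in those of hour 18, the shallowest pair. This range is of single pairs, whereas the 3 medians are of means over all pairs of a kind, so it does not measure their uncertainty. The order of the state and bird medians was not stable. The state median was above the bird median with TPM shares (0.576 and 0.523), without hour 22 (0.485 and 0.472), without the photorefractory birds of hour 18 (0.480 and 0.464) and in 9 of the 15 comparisons that left out 1 bird. The hour median was above the bird median in all 15. No p-value was computed, since genes are not replicates.

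Gene by gene, the mean hour distance exceeded the mean bird distance in 21 of the 33 genes (63.6%), against 70.5% of the other genes with at least 10 transcripts and 62.3% of genes with 2 to 9. The mean state distance exceeded it in 22 of the 33 (66.7%), against 58.8% and 53.2%. The median excess was 0.024 for hours and 0.017 for states. Leaving out each bird in turn gave 51.5% to 70.6% for hours and 58.8% to 72.7% for states. Pairs with an hour 22 library had a median distance of 0.539 and pairs without one 0.525, and each set exceeded the bird distance in 20 of the 33 genes.

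**Figure D3:**
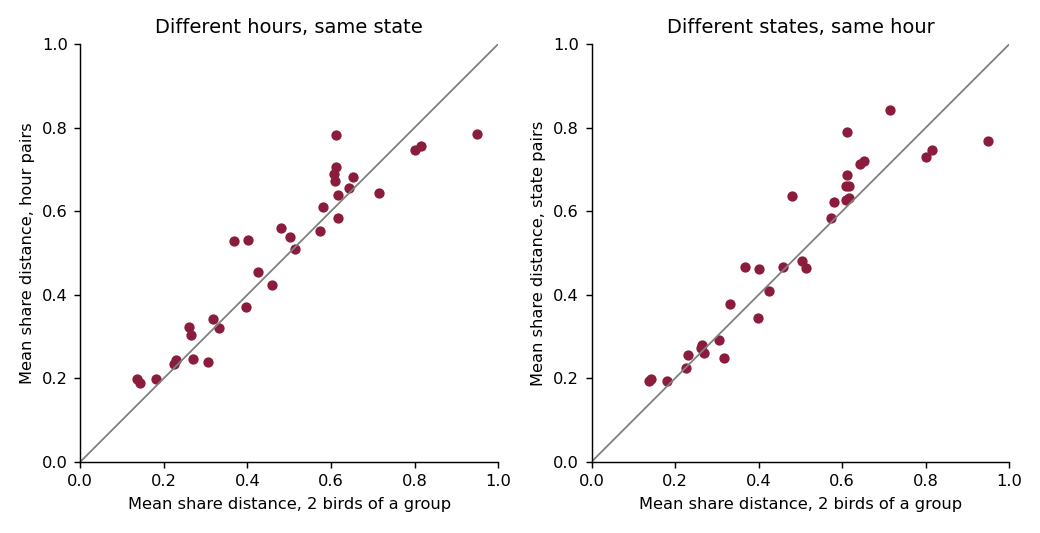
Each point is 1 of 33 genes, with the mean share distance (0 to 1) between the 2 birds of a group on the horizontal axis and the mean between hours within a state (left) or between states at the same hour (right) on the vertical axis. The points lie on both sides of the line of equality, with 21 above it for hours and 22 above it for states.

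The genes farthest above the line differed in kind. TRINITY_DN92641_c2_g1 had the largest excess for both, with 0.611 between birds, 0.781 between hours and 0.789 between states. These values rest on 13 libraries, because the photorefractory birds of hour 18 had only 13 and 1 counts of this gene. For hours TRINITY_DN90062_c0_g1 followed (0.368 and 0.529), a gene of 714 nt in which transcript i1 led in 10 libraries and i8 in 5, and then TRINITY_DN85906_c0_g1 (0.401 and 0.531). For states TRINITY_DN100201_c3_g1 (0.480 and 0.637) and TRINITY_DN94464_c2_g1 (0.714 and 0.841) followed. In TRINITY_DN94464_c2_g1 transcript i1 led in 4 of 8 photosensitive libraries and 0 of 7 photorefractory ones, and i24 in 0 of 8 and 3 of 7. Of its other leaders, i16 led in 2 and 2, i10 in 2 and 1, and i19 in 0 and 1. The leader was the same in 0% of the pairs of birds of a group. The usage test for the state, given below, did not call this gene (edgeR adjusted p = 0.0762).

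Whether transcript usage differed between hours or states was tested with edgeR's differential usage test (diffSpliceDGE), against the spread left by the hour and state terms. This test asks if the transcripts of a gene change by unlike factors. Only transcripts over that limit entered, which left 68 of the 200 genes, with a median of 4 tested transcripts. Genes with an adjusted p up to 0.05, over all 22324 tested, were called. By state 1 of the 68 was called, against a background of 0.0896% of all genes. By hour 22 against hour 10, 5 of the 68 were called (7.35%), against a background of 1.99%. By hour 14 none was called, with a background of 0%, and by hour 18 none, with a background of 0.130%. At an unadjusted p under 0.05 there were 12 of the 68 for hour 14 (17.6%, against 10.7% of all genes) and 11 for hour 18 (16.2%, against 13.9%). limma's voom test also called none of the 68 in either, against 0.999% and 1.15% of all genes.

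The number of transcripts in the test moved with the calls. Among all genes with at least 10 tested transcripts 5.68% were called by hour 22, against 1.46% of those with 2 to 3. Of the 68 genes 26 had at least 10, and 4 of these were called (15.4%), and the part of the number of tested transcripts in the share of 7.35% was not tested. The count of 5 moved with single birds. It fell to 0 without photosensitive hour 22 bird 1 and to 1 without bird 2 of that group or without the photorefractory bird of hour 22. It was 2 without photosensitive hour 10 bird 2, photosensitive hour 14 bird 2 or either photorefractory hour 10 bird, and 3 without photosensitive hour 10 bird 1 or photorefractory hour 18 bird 1. The calls over all genes moved too. From 444 of 22324 they fell to 218 of 21451 without photosensitive hour 22 bird 1 and to 196 of 21220 without bird 2. Without photorefractory hour 10 bird 1 or bird 2 they were 214 of 22030 and 260 of 22110. Without photosensitive hour 10 bird 1 they were 252 of 21643, and without bird 2 of that group 460 of 21733.

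TRINITY_DN85906_c0_g1 passed the test for usage and not the test for its total. Its level was 377 ± 17.3 CPM at hour 22 (SD, n = 3; CPM is the count scaled to the library total) and 361 ± 49.5 CPM at hours 10 to 18 (SD, n = 12). Transcript i7, of 2762 nt, held 2.74% and 0.489% of the gene in the photosensitive and 7.01% in the photorefractory birds at hour 22, and 10.7% to 73.0% in each of the other 12 libraries. Transcript i15, of 10099 nt, held 27.1%, 12.3% and 14.5% at hour 22. In the other libraries i15 reached 15.8% and 1.88% in the photorefractory birds of hour 18 and 9.19% in photosensitive hour 14 bird 1, and lay between 0% and 1.59% in the remaining 9. The hour 22 libraries thus lay apart from all others for i7 and overlapped 1 of them for i15. Usage differed between hours 22 and 10 (F = 3.29 over 22 transcripts, edgeR adjusted p = 0.00248), and the call was lost without photosensitive hour 22 bird 1 (adjusted p = 0.0590) or with Simes' p over transcripts in place of the F test (adjusted p = 0.268). The 2 transcripts with the smallest transcript-level p, i15 and i17, had adjusted p-values of 0.111 and 0.168. The total did not pass the test (log2 fold change of -0.02, SE 0.157, adjusted p = 0.951).

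**Figure D4:**
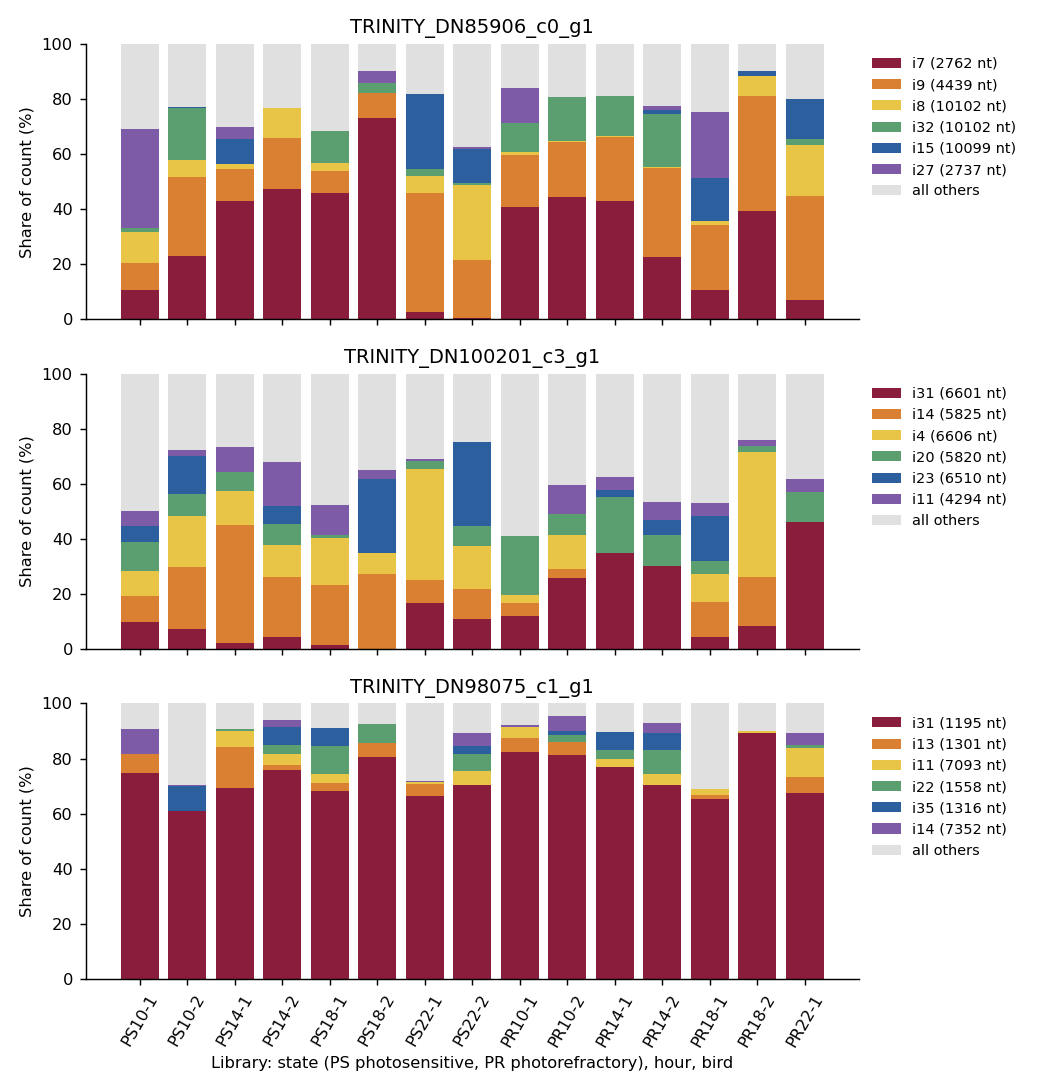
Share (%) of the estimated count of 3 genes held by their 6 largest transcripts in each library, with all other transcripts in grey; libraries are ordered by state (PS photosensitive, PR photorefractory), hour and bird. In TRINITY_DN85906_c0_g1 the dark red transcript i7 is nearly gone at hour 22, in TRINITY_DN100201_c3_g1 the leader changes from library to library, and in TRINITY_DN98075_c1_g1 transcript i31 leads in all 15.

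In TRINITY_DN90800_c0_g1 the called difference came with 1 minor transcript. Transcript i43, of 1561 nt, held 5.45% and 5.65% in the photosensitive and 10.7% in the photorefractory birds at hour 22. It also held 23.5% and 10.9% in the photorefractory birds of hour 18 and was at 0 in the remaining 10, where 3 counts would have been 0.333% to 2.38% of the gene. Transcript i17, of 652 nt, went the other way, with under 1 count in each hour 22 library and 0.590 to 23.0 counts in the other 12. Usage differed (F = 3.53 over 12 transcripts, edgeR adjusted p = 0.0270), i43 itself had an adjusted p of 0.0169, and the 2 leading transcripts i14 and i12 led in 14 of the 15 libraries. Simes' p kept this call (adjusted p = 0.0407). The call was lost without photosensitive hour 10 bird 1 (adjusted p = 0.0605), photosensitive hour 22 bird 1 (0.111) or bird 2 (0.0654), photorefractory hour 10 bird 1 (0.113) or bird 2 (0.0794), photorefractory hour 14 bird 2 (0.0522) or photorefractory hour 22 bird 1 (0.0678). Reads of i43 occurred in the deepest and in the shallowest libraries.

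TRINITY_DN100201_c3_g1 was called by state and by hour 22. Its 2 largest transcripts, set side by side after their values were seen, led in different states. Transcript i14, of 5825 nt, led in 5 of 8 photosensitive and 0 of 7 photorefractory libraries, with shares of 8.29% to 43.0% and of 0% to 17.8%. Transcript i31, of 6601 nt, led in 0 of 8 and 4 of 7, with shares of 0% to 16.8% and of 4.33% to 46.1%. Both ranges overlapped between the states. Usage differed by state (F = 2.95 over 30 transcripts, edgeR adjusted p = 0.0124) and by hour 22 (F = 2.25, adjusted p = 0.0336). The transcripts with the smallest p by state were i24 and i17. Transcript i24 had counts in 3 photosensitive libraries (31.1, 39.2 and 59.0 counts) and under 1 count in the other 12. Transcript i17 had counts in 7 of 8 photosensitive libraries and 1 of 7 photorefractory ones. Both thus reached the limit for testing only through the photosensitive libraries, where they were high, so their values add no support to the state call. By hour 22 the transcripts with the smallest p were i2 and i25. Transcript i2 had 38.3 and 3.02 counts in the photosensitive and 49.4 in the photorefractory birds of hour 22. It also had 41.8 counts in photorefractory hour 18 bird 1. Without the hour 22 libraries, where it was high, i2 would not have reached the limit for testing. Its values therefore add no support to the hour 22 call. Transcript i25 was at 0 in 8 of the 15 libraries, the 3 of hour 22 among them. No transcript of this gene passed the test by itself, and Simes' adjusted p was 0.663 by state and 0.480 by hour 22.

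The state call of TRINITY_DN100201_c3_g1 was lost without photosensitive hour 14 bird 2 (adjusted p = 0.110), photorefractory hour 14 bird 1 (0.192) or bird 2 (0.140), photorefractory hour 18 bird 1 (0.0702), and without photosensitive hour 14 bird 1 (0.0557), when another gene was called. The count of genes called by state was 2 without photosensitive hour 10 bird 1 (18 of all 21643 genes) or photorefractory hour 10 bird 1 (21 of all 22030). The hour 22 call was lost without any of 9 birds, with adjusted p-values of 0.263 and 0.0654 without photosensitive hour 22 bird 1 or bird 2, 0.125 without photorefractory hour 22 bird 1, 0.133 and 0.161 without photorefractory hour 10 bird 1 or bird 2, 0.0836 without photorefractory hour 18 bird 1, and 0.0659, 0.0534 and 0.0530 without bird 2 of photosensitive hours 10, 14 and 18.

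The other 2 calls by hour 22 differed in their totals. TRINITY_DN93742_c3_g1 had 173.9 to 217 CPM at hour 22 and 20.6 to 112 CPM before, and its transcripts i4 and i8 had under 1 count in each hour 22 library. This was not particular to hour 22, since i4 had under 1 count in 12 of the 15 libraries and i8 in 11. At hours 14 and 18, i4 reached 1 count only in photorefractory hour 14 bird 2 (43.4). There i8 had 28.6 counts, and 27.3 in photosensitive hour 14 bird 1, and under 1 in the rest of hours 14 and 18. In the photosensitive birds of hour 10 these transcripts had 18.5 and 214 counts (i4) and 36.6 and 92.6 counts (i8) (F = 2.36 over 26 transcripts, edgeR adjusted p = 0.0337). Neither i4 nor i8 reached 1 count in the photorefractory birds of hour 10, so the 4 reference libraries differed among themselves. Transcript i4 reached the limit for testing only through the photosensitive birds of hour 10, where it was high. Its values therefore add no support to the call of TRINITY_DN93742_c3_g1. This call was lost without either photosensitive hour 10 bird (adjusted p = 0.154 and 0.189), either photosensitive hour 14 bird (0.0658 and 0.0534), either photosensitive hour 22 bird (0.239 and 0.166) or the photorefractory hour 22 bird (0.0884), and with Simes' p (0.541). TRINITY_DN89754_c0_g1, led by i30 in all 15 libraries, was called with 3 tested transcripts (edgeR adjusted p = 0.0457, or 0.292 with Simes' p). Of these, i20 and i35 reached the limit for testing only through the photosensitive birds of hour 10, where they were high. They had 22.0 and 7.28 counts (i20) and 24.7 and 7.81 counts (i35) there, and under 1 count in every other library. The call therefore does not show a change particular to hour 22. This gene also had the smallest p for hour 14 (edgeR adjusted p = 0.263). Its transcripts i20 and i35 held 27.3% and 30.7% in photosensitive hour 10 bird 1, 6.50% and 6.98% in bird 2, and at most 3.72% elsewhere. For hour 18 the smallest p belonged to TRINITY_DN85337_c2_g1 (adjusted p = 0.196), whose transcript i15 held 63.9% in photosensitive hour 10 bird 2, 88.3% in photorefractory hour 10 bird 2 and 0% in the other 2 libraries of hour 10. This transcript reached the limit for testing only through hour 10 libraries.

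The share of genes with reads on longer transcripts at hour 22 was close to background among the 33. The count-weighted mean transcript length, a measure chosen after the shares were seen and not tested, was higher in all 3 hour 22 libraries than in all 12 others in 4 of the 33 genes, and lower in none. Among all genes with at least 10 transcripts the background was 8.43% for higher and 4.94% for lower, so the 12.1% of the 33 genes was close to it. In TRINITY_DN85906_c0_g1 the length was 6884 to 7314 nt at hour 22 and 3418 to 5851 nt before. TRINITY_DN92213_c0_g1 had 7514 to 7830 nt and 6044 to 7117 nt, TRINITY_DN97366_c0_g1 7016 to 7561 nt and 3678 to 6337 nt, and TRINITY_DN94275_c0_g1 4487 to 4583 nt and 2345 to 4253 nt. Over all 33 genes the median ratio of hour 22 to hour 10 was 1.01.

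The summed counts of the genes were tested with edgeR's quasi-likelihood test, with 193 of the 200 genes reaching 5 counts in at least 2 libraries among 70476 genes tested. By hour 22 against hour 10, 25 of the 193 were called (13.0%), against a background of 18.0%. Of these 19 were higher (9.84%, background 10.0%) and 6 lower (3.11%, background 8.03%). The median log2 fold change was 0.44 in the 193 and 0.16 over all genes tested. The hour 22 and hour 10 libraries did not overlap in 22 of the 25, and all 7 called genes with a mean of at least 50 counts were higher. Neither count was taken over all genes, and the 25 were called on these same values, so neither adds support to the calls. The count fell to 13 without photosensitive hour 22 bird 1 and to 7 without bird 2, and the backgrounds to 6.73% and 5.37%.

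TRINITY_DN89282_c0_g1, of up to 3733 nt, was higher at hour 22 than in every earlier library. It had 243 and 226 CPM in the photosensitive and 220 CPM in the photorefractory birds at hour 22, and 71.2 to 114.6 CPM in the other 12 libraries, with no overlap. The log2 fold change was 1.08 (SE 0.171, edgeR adjusted p = 0.00205), and transcript i15 led the gene in all 15 libraries. TRINITY_DN85702_c0_g1, with no transcript over 489 nt, had 9.17 and 22.3 CPM in the photosensitive and 14.2 CPM in the photorefractory birds at hour 22. It had 0.137, 0.355, 0.353 and 0 CPM at hour 10, 0.282 to 1.05 CPM at hour 14 and 0.945 to 5.82 CPM at hour 18 (log2 fold change 5.93, SE 0.659, adjusted p = 2.13e-04 for hour 22). Its hour 18 value did not pass the test (log2 fold change 3.63, SE 0.681, adjusted p = 0.137), although it had the smallest p of the 193 there.

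The 2 lower genes with the smallest p were short and sparse. TRINITY_DN81112_c2_g1, of up to 630 nt, had 0.124 and 0.213 CPM in the photosensitive and 0.264 CPM in the photorefractory birds at hour 22 and 1.16 to 13.8 CPM in the other 12 libraries (log2 fold change of -4.85, SE 0.682, edgeR adjusted p = 0.00115). TRINITY_DN83981_c1_g1, of up to 457 nt, had 0.744, 0.319 and 0.264 CPM at hour 22 and 0.945 to 4.33 CPM before (log2 fold change of -2.75, SE 0.623, adjusted p = 0.0106), and its call was lost without photosensitive hour 22 bird 2 (adjusted p = 0.0521). The hour 22 values of these genes rest on 1 to 6 counts per library.

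**Figure D5:**
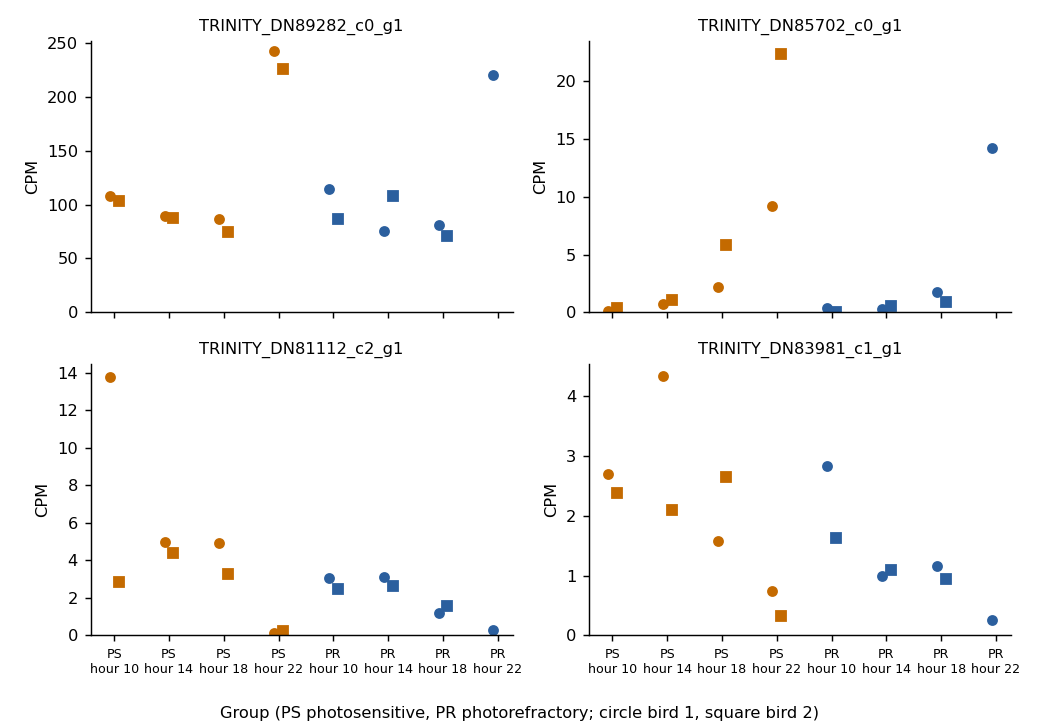
Summed CPM of 4 genes in each bird, by group, with photosensitive birds (PS) in orange, photorefractory birds (PR) in blue, circles for bird 1 and squares for bird 2. The upper genes had 220 to 243 CPM and 9.17 to 22.3 CPM at hour 22, above all earlier libraries, and the lower genes 0.124 to 0.264 CPM and 0.264 to 0.744 CPM, below all earlier libraries.

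The state and the other hours gave no called total among the 193 genes. The backgrounds were 0% for the state, 0% for hour 14 and 0.00284% for hour 18, and 22, 8 and 26 of the 193 had an unadjusted p under 0.05 (11.4%, 4.15% and 13.5%, against 8.79%, 3.14% and 11.4% of all genes). DESeq2 called 1 of the 193 by state (0.518%, against 0.230% of all genes), 0 by hour 14 (against 0.00142%) and 3 by hour 18 (1.55%, against 0.945%). By state the smallest p belonged to TRINITY_DN85660_c1_g1, with 0.394 to 6.83 CPM in the 8 photosensitive and 0 to 0.530 CPM in the 7 photorefractory libraries (log2 fold change of -2.96, SE 0.545, edgeR adjusted p = 0.336). By hour 14 it belonged to TRINITY_DN95890_c1_g1 (log2 fold change of -1.97, SE 0.648, adjusted p = 1). The state libraries of TRINITY_DN85660_c1_g1 overlapped only between 0.394 and 0.530 CPM. They held 2 to 50 counts in the photosensitive and 0 to 4 counts in the photorefractory birds. The gene was picked by its p on these same values, so the small overlap adds no support to a difference by state.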

How the data were processed

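The authors trimmed the reads with Trimmomatic, assembled all libraries into 1 transcriptome with Trinity, reduced it with CD-HIT and quantified each library with kallisto. Each deposited table lists, per transcript, length, effective length, estimated count and TPM. The deposited estimated counts divide reads among transcripts of similar sequence, so shares of near-identical transcripts are uncertain. The deposited TPM values were used for levels between genes, with the medians also given in CPM. The gene of a transcript was read from its identifier.

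Counts were summed per gene and then rounded, with a change of at most 0.0117% in any library's total. Library totals were 3176062 to 9403923. Limits from 3 counts cover counting error only. Genes or transcripts with at least 5 counts in at least 2 libraries were fitted in edgeR 4.0.16 (R 4.3.3) with hour and state as terms over all 15 libraries, TMM factors and quasi-likelihood tests, or diffSpliceDGE for usage, and p-values were adjusted by Benjamini-Hochberg over all features tested. Shares were compared in genes with a mean of at least 50 counts, between libraries with at least 20 counts of the gene. limma 3.58.1 and DESeq2 1.42.0 gave alternatives, and Python 3.11.15 with pandas 2.3.3 and matplotlib 3.10.9 the rest.

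Named were the first 10 genes by number of transcripts, the 5 with the largest sums, the 3 most and least concentrated, the 3 with the largest excess of hour or state distance, at most 4 genes called for usage in a comparison with their 2 transcripts of smallest p, and the 2 higher and 2 lower totals with the smallest p, or the gene with the smallest p where none was called. The fifth usage call by hour 22 and the transcripts i7, i14 and i31 of the text were chosen after their values were seen. So were i1 and i24 of TRINITY_DN94464_c2_g1. The members and lists were chosen with earlier results of these data known.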

Additional observations from a re-analysis of the deposited data

How the results depend on the processing

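Percentages in parentheses are shares of all genes tested under the same setting. Among the 200 genes, the count called for usage by hour 22 (5 of 68 tested) became 1 of 200 without a filter beyond 1 count (0.514%). It was 17 of 68 with limma's voom test (11.8%) and 1 of 68 with Simes' p (0.708%). With the libraries of the 2 hours alone it was 3 of 50 (1.85%), and after thinning to equal depth 3 of 49 (2.12%). Without the photorefractory birds of hour 18, an alternative chosen after seeing the data, it was 3 of 64 (1.81%). Leaving out single birds gave 0 to 5. By state (1 of 68) the count became 0 of 68 with a transcript share of at least 5% required (0.0603%) and 0 of 68 with Simes' p (0.0134%). It became 0 of 64 without the photorefractory birds of hour 18 (0.0454%), and 0 to 2 without single birds. Choosing the 200 genes by transcripts with at least 5 counts, which shared 18 genes with the ranking used, gave 2 by state (0.0896%), 1 by hour 18 (0.130%) and 19 by hour 22 (1.99%) for usage and 50 for totals by hour 22 (18.0%). Called totals became 3 by state (0.198%), 1 by hour 14 (0.0593%) and 4 by hour 18 (0.302%) without the filter, and 1 by state (0.230%) and 3 by hour 18 (0.945%) with DESeq2. By hour 22 (25) they became 40 with limma on log2(TPM + 1), 20.7% of the 193 against 14082 of all 70476 genes, and 7 to 31 without single birds. The causes were not tested. The 4 totals named for hour 22 kept their sign in all 25 alternatives of each. The state distance exceeded the bird distance in 58.8% of the genes compared without the photorefractory birds of hour 18, against 66.7% with them. In the other genes with at least 10 transcripts that share went from 58.8% to 47.3%, and the median excess from 0.010 to -0.003. Pairing: bird numbers are labels only, with correlations of deviations of -0.238 to 0.111 over 21 pairs of groups, 1 of them over 0.1. With the replicate block the usage counts were 2 by state (0.202%), 0 by hour 14 (0.00448%), 0 by hour 18 (0.0582%) and 4 by hour 22 (2.07%), and the called totals 0 by state (0%), 0 by hour 14 (0%), 0 by hour 18 (0.00709%) and 19 by hour 22, 9.84% of the 193 against 12.2% of all genes.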
